A study of Mus musculus with 14 samples.

Results

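The 42 genes described here carry cells through DNA replication and division, and they were read in 14 libraries of bulk mouse tumour tissue. They were chosen by name, as 23 genes of mitosis and 19 genes of S phase, from a table of 51789 genes. All 42 passed the filter on low counts that left 17294 genes for testing, and the lowest raw count of any member in any library was 15, for Aurkb. The series concerns inhibitors of ACSS2, an enzyme that makes acetyl-CoA from acetate, in triple negative breast cancer. The 4 groups were tumours of NGS mice given vehicle (n = 3), NGS mice given the inhibitor, labelled ACSS2i (n = 3), C57BI/6 mice given vehicle (n = 4) and C57BI/6 mice given ACSS2i (n = 4); the second strain is written C57BI6 from here on. What the name NGS stands for, the animals' age and genotype, the tumour line, the dose and the duration are not given in the sources used here, and a Bmal1 status named in the design line is assigned to no library. RNA was read from the 3' end of polyadenylated transcripts (QuantSeq), and levels below are in CPM, which is counts scaled to a common library total.

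A dividing cell first copies its DNA and then separates the copies. Cyclin E and the E2F factors open S phase, Cdc6 and Cdt1 load the MCM helicase ring onto origins, and ribonucleotide reductase and thymidylate synthase supply nucleotides. Cyclin A, the B cyclins and Cdk1 then drive mitosis, in which kinesins and spindle proteins move the chromosomes, the Bub kinases check their attachment, and Cdc20 and Ube2c direct the destruction of cyclins. The genes of both phases are transcribed in step with the cycle, so tumours are often scored for growth by their sum.

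The library total was 17.6 to 20.3 M counts in C57BI6 and 2.85 to 4.70 M in NGS, so that depth and strain cannot be told apart. The labelled tissue carried the keratin Krt8 in every library at 175 to 395 CPM, with Krt18 and Cdh1, whereas Epcam lay between 0 and 3.84 CPM and Krt7 was at or near 0. Of the other cells in the tissue, markers of T cells summed to 1.84 to 5.46 CPM in NGS, 9.90 to 25.7 CPM in C57BI6 vehicle and 38.2 to 84.8 CPM in C57BI6 ACSS2i. Skeletal muscle markers ranged from 3.50 to 6986 CPM and were richest in NGS vehicle 2, C57BI6 ACSS2i 3 and NGS vehicle 3. In NGS ACSS2i 2, the shallowest library, 10 of the 42 members lay outside 1.5-fold of the mean of its group's other libraries. So did 27.3% of the 9913 genes at a like level. In NGS ACSS2i 1 the values were 9 members and 19.3% of genes, and in NGS ACSS2i 3 they were 3 and 10.3%. Whether these cell types, or these libraries, had a part in the differences between groups was not tested, except where values without a library are given. In bulk tissue, fewer dividing cells and less RNA per dividing cell cannot be told apart.

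The mitotic and S-phase members took different shares of the members' summed signal in the 2 strains. The mitotic members summed to 1660, 1868 and 2191 CPM in NGS vehicle, 1797, 2257 and 2429 CPM in NGS ACSS2i, 2577, 1911, 2314 and 2039 CPM in C57BI6 vehicle, and 2394, 2488, 2612 and 2378 CPM in C57BI6 ACSS2i. The S-phase members summed to 859, 851 and 919.9 CPM in NGS vehicle, 880.1, 1072 and 1035 CPM in NGS ACSS2i, 719, 775, 766 and 584 CPM in C57BI6 vehicle, and 714, 788, 808 and 698 CPM in C57BI6 ACSS2i. The S-phase sum was thus lower in every C57BI6 library than in any NGS library, while the mitotic sums of the strains overlapped. The ratio of the mitotic to the S-phase sum was 3.58, 2.46, 3.02 and 3.49 in C57BI6 with vehicle and 3.35, 3.16, 3.23 and 3.41 with ACSS2i, and it was 1.93, 2.20 and 2.38 in NGS with vehicle and 2.04, 2.11 and 2.35 with ACSS2i. All 8 C57BI6 ratios lay above all 6 NGS ratios, C57BI6 vehicle 2 being the nearest to them. These sums are a description with no test, and Top2a alone made up 20.7 to 31.8% of the mitotic sum.

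**Figure D1:**
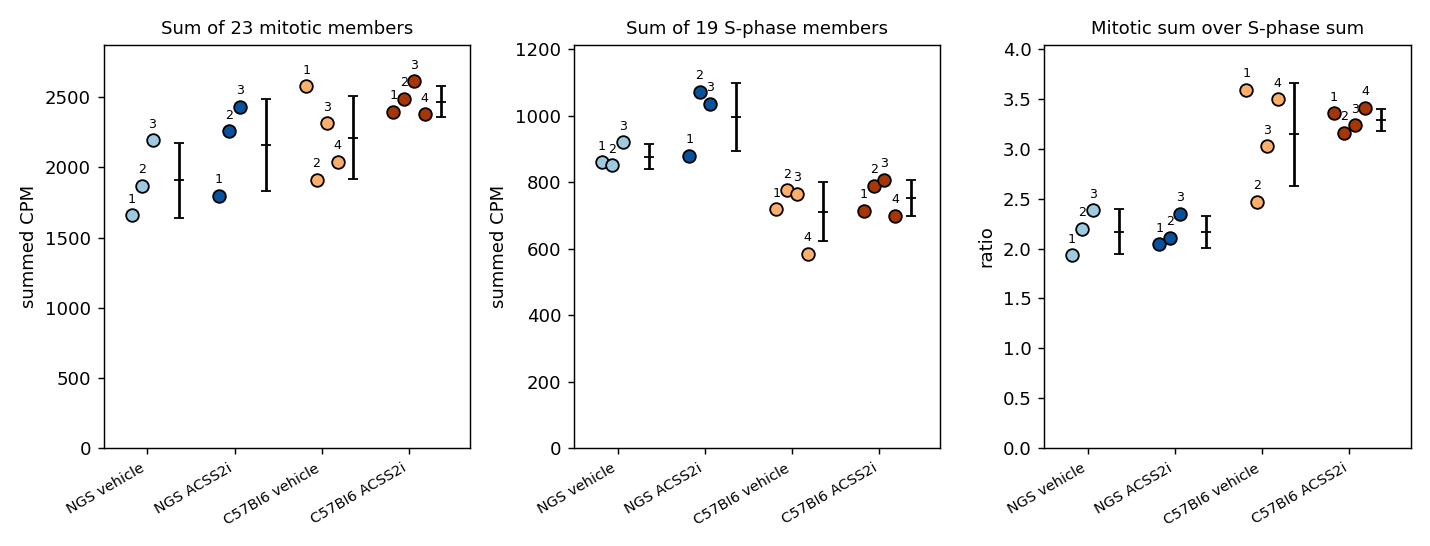
Summed CPM of the 23 mitotic members (left), of the 19 S-phase members (middle) and their ratio (right), by group; each point is a library with its replicate number, and the bar is the mean ± SD. The ratio was 1.93 to 2.38 in the 6 NGS libraries and 2.46 to 3.58 in the 8 C57BI6 libraries.

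The strains were compared under each treatment by the edgeR quasi-likelihood test, with p-values adjusted by Benjamini-Hochberg over all 17294 genes. In vehicle, 6 of the 23 mitotic members were higher in C57BI6 and 1 was lower, while 0 of the 19 S-phase members were higher and 6 were lower. Of all genes tested, 18.8% were higher and 14% lower, so the 26.1% of mitotic members higher stood near the background and the 31.6% of S-phase members lower stood above it. Under ACSS2i, 7 mitotic members were higher and 0 lower, and 1 S-phase member was higher and 10 lower, against 23.1% of all genes higher and 17.2% lower. The 10 S-phase members that fell made up 52.6% of their list. The median log2 fold change was 0.18 for the mitotic and -0.32 for the S-phase members in vehicle (all genes 0.01), and 0.22 and -0.39 under ACSS2i (all genes 0.06). For 64 replication genes outside the members it was only -0.08 in vehicle and -0.07 under ACSS2i. For 54 further mitotic genes it was 0.10 and 0.28. Libraries of the strains did not overlap in vehicle for 9 members higher in C57BI6 and 11 lower. Over the 17294 genes these counts were 4056 and 2958. Under ACSS2i they were 12 and 6 members, and 4641 and 3079 of all genes. A lack of overlap between strains, given below for single members, was thus common. The 2 strain comparisons have no library in common: 10 members passed in both in the same direction, which is 76.9% of the 13 called in vehicle and 55.6% of the 18 called under ACSS2i, and over all genes the shares were 72.3% and 58.8%.

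The B cyclins, which activate Cdk1 for entry into mitosis, were the members that set the strains apart most evenly. Ccnb1 stood at 46.5, 55.6 and 48.3 CPM in NGS vehicle, 53.0, 49.8 and 57.8 CPM in NGS ACSS2i, 94.6, 71.8, 88.8 and 80.5 CPM in C57BI6 vehicle, and 90.6, 93.8, 95.2 and 94.1 CPM in C57BI6 ACSS2i. Ccnb2 stood at 28.5, 30.5 and 28.5 CPM in NGS vehicle, 29.7, 27.3 and 26.7 CPM in NGS ACSS2i, 53.2, 41.0, 52.1 and 40.9 CPM in C57BI6 vehicle, and 47.0, 48.3, 48.7 and 49.1 CPM in C57BI6 ACSS2i. For both cyclins the lowest C57BI6 library lay above the highest NGS library. In vehicle the log2 fold change was 0.74 ± 0.11 (SE) for Ccnb1 (edgeR adjusted p = 0.00012) and 0.68 ± 0.12 for Ccnb2 (adjusted p = 0.0004). Under ACSS2i it was 0.80 ± 0.11 (edgeR adjusted p = 5.71e-05) and 0.79 ± 0.12 (adjusted p = 0.000115), and both cyclins passed in both comparisons in every alternative run. Pseudogenes named after each of them, and after Pcna and Tyms, are annotated. How the authors' counting shared reads between such copies is not given in the sources used here.

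Cdk1, the kinase the B cyclins activate, was at 122, 147 and 159.8 CPM in NGS vehicle, 139.9, 43.5 and 146 CPM in NGS ACSS2i, 222, 182, 252 and 198 CPM in C57BI6 vehicle, and 239, 225, 253 and 221 CPM in C57BI6 ACSS2i. The strains did not overlap, and NGS ACSS2i 2 lay far below every other library. The log2 fold change was 0.58 ± 0.28 in vehicle (edgeR adjusted p = 0.12) and 1.09 ± 0.28 under ACSS2i (adjusted p = 0.0068). Ccna2, the cyclin A of S phase and early mitosis, went the other way: it was at 38.2, 39.3 and 44.4 CPM in NGS vehicle, 33.2, 36.2 and 41.0 CPM in NGS ACSS2i, 29.9, 27.7, 30.6 and 20.8 CPM in C57BI6 vehicle, and 30.8, 31.5, 33.5 and 28.8 CPM in C57BI6 ACSS2i. It was lower in C57BI6 in vehicle by a log2 fold change of -0.57 ± 0.13 (edgeR adjusted p = 0.0044), with no overlap, and under ACSS2i the groups overlapped (-0.24 ± 0.14, adjusted p = 0.17).

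Among the spindle genes, Prc1, which bundles the microtubules of the central spindle, was at 72.6, 79.2 and 97.8 CPM in NGS vehicle, 94.9, 86.7 and 107 CPM in NGS ACSS2i, 139, 102, 132 and 121 CPM in C57BI6 vehicle, and 135, 134, 139 and 138 CPM in C57BI6 ACSS2i. It was higher in C57BI6 under both treatments, with no overlap within a treatment, by 0.57 ± 0.13 and 0.50 ± 0.13 on the log2 scale (edgeR adjusted p = 0.0029 and 0.0054). Tpx2, the activator of Aurora A on the spindle, was at 59.5, 78.5 and 74.3 CPM in NGS vehicle, 83.7, 108 and 113 CPM in NGS ACSS2i, 125, 96.7, 113 and 90.2 CPM in C57BI6 vehicle, and 109, 108, 135 and 113 CPM in C57BI6 ACSS2i. It was higher in C57BI6 in vehicle (0.59 ± 0.15, edgeR adjusted p = 0.007), while under ACSS2i the strains overlapped (0.19 ± 0.15, adjusted p = 0.31). Kif20a, a kinesin of cytokinesis, was at 17.0, 11.7 and 18.7 CPM in NGS vehicle, 18.7, 17.1 and 23 CPM in NGS ACSS2i, 34.1, 23.7, 33.2 and 19.2 CPM in C57BI6 vehicle, and 26.7, 29.7, 32.7 and 26.4 CPM in C57BI6 ACSS2i. Its log2 fold change was 0.80 ± 0.21 in vehicle (edgeR adjusted p = 0.01), a call lost without NGS vehicle 2 and at equal depth, and 0.55 ± 0.21 under ACSS2i (adjusted p = 0.052).

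Ube2c, the ubiquitin-conjugating partner of the anaphase-promoting complex, was at 94.5, 97.1 and 109 CPM in NGS vehicle, 98.4, 78.4 and 118 CPM in NGS ACSS2i, 144, 113, 143 and 126 CPM in C57BI6 vehicle, and 155, 135, 151 and 138 CPM in C57BI6 ACSS2i. The strains did not overlap under either treatment, with log2 fold changes of 0.39 ± 0.13 in vehicle (edgeR adjusted p = 0.034) and 0.56 ± 0.13 under ACSS2i (adjusted p = 0.0039). The vehicle call was lost without any 1 of NGS vehicle 1, NGS vehicle 2, C57BI6 vehicle 1 and C57BI6 vehicle 3, and at equal depth. Ube2c overlaps Tnnc2, a muscle troponin, on the opposite strand by 1662 bases, and whether the counting used strand is not given in the sources used here. Opposite-strand overlaps are also annotated for Prc1 (21810 bases), Gins2 (10672 with Gm20388 and 2758 with Gse1), Ccne2 (5622) and Kif20a (2327). Shorter ones are annotated for Ccna2 (863), Cdc45 (209), Nusap1 (172) and Cdc20 (53). Tnnc2 itself ran from 0.0993 CPM in C57BI6 ACSS2i 2 to 687 CPM in NGS vehicle 2. Whether its reads had a part in the Ube2c values was not tested. Cdc20, the other regulator of that complex, pointed the opposite way without passing (-0.32 ± 0.18 and -0.46 ± 0.18, edgeR adjusted p = 0.18 and 0.053).

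Under ACSS2i, Cenpa, the histone of the centromere, and Bub1b, a spindle checkpoint kinase, also passed. Cenpa was at 37.4, 43.5 and 49.9 CPM in NGS vehicle, 40.1, 7.25 and 44.4 CPM in NGS ACSS2i, 75.7, 61.0, 74.4 and 57.4 CPM in C57BI6 vehicle, and 77.8, 70.2, 71.4 and 74.1 CPM in C57BI6 ACSS2i. Its strains did not overlap under either treatment, and the log2 fold change was 1.24 ± 0.35 under ACSS2i (edgeR adjusted p = 0.011, and 0.050 with a fit to the groups compared alone) and 0.62 ± 0.33 in vehicle (adjusted p = 0.17). Bub1b was at 20.0, 17.5 and 18.7 CPM in NGS vehicle, 21.7, 19.1 and 19.1 CPM in NGS ACSS2i, 24.8, 17.8, 23.1 and 20.2 CPM in C57BI6 vehicle, and 26.5, 27.9, 26.3 and 24.4 CPM in C57BI6 ACSS2i. It differed by 0.40 ± 0.13 under ACSS2i (edgeR adjusted p = 0.028), a call lost without any 1 of NGS ACSS2i 2 and 3 and C57BI6 ACSS2i 1, 2 and 3. That call was also lost with limma voom, with no filter on low counts, and without NGS ACSS2i 2 and C57BI6 vehicle 4 together. The other mitotic members did not pass in either comparison: the proliferation antigen Mki67, the topoisomerase Top2a, the kinases Plk1, Aurka, Aurkb and Bub1, the survivin gene Birc5, the kinetochore genes Cenpe and Cenpf, the kinesins Kif11 and Kif23, and the spindle gene Nusap1.

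**Figure D2:**
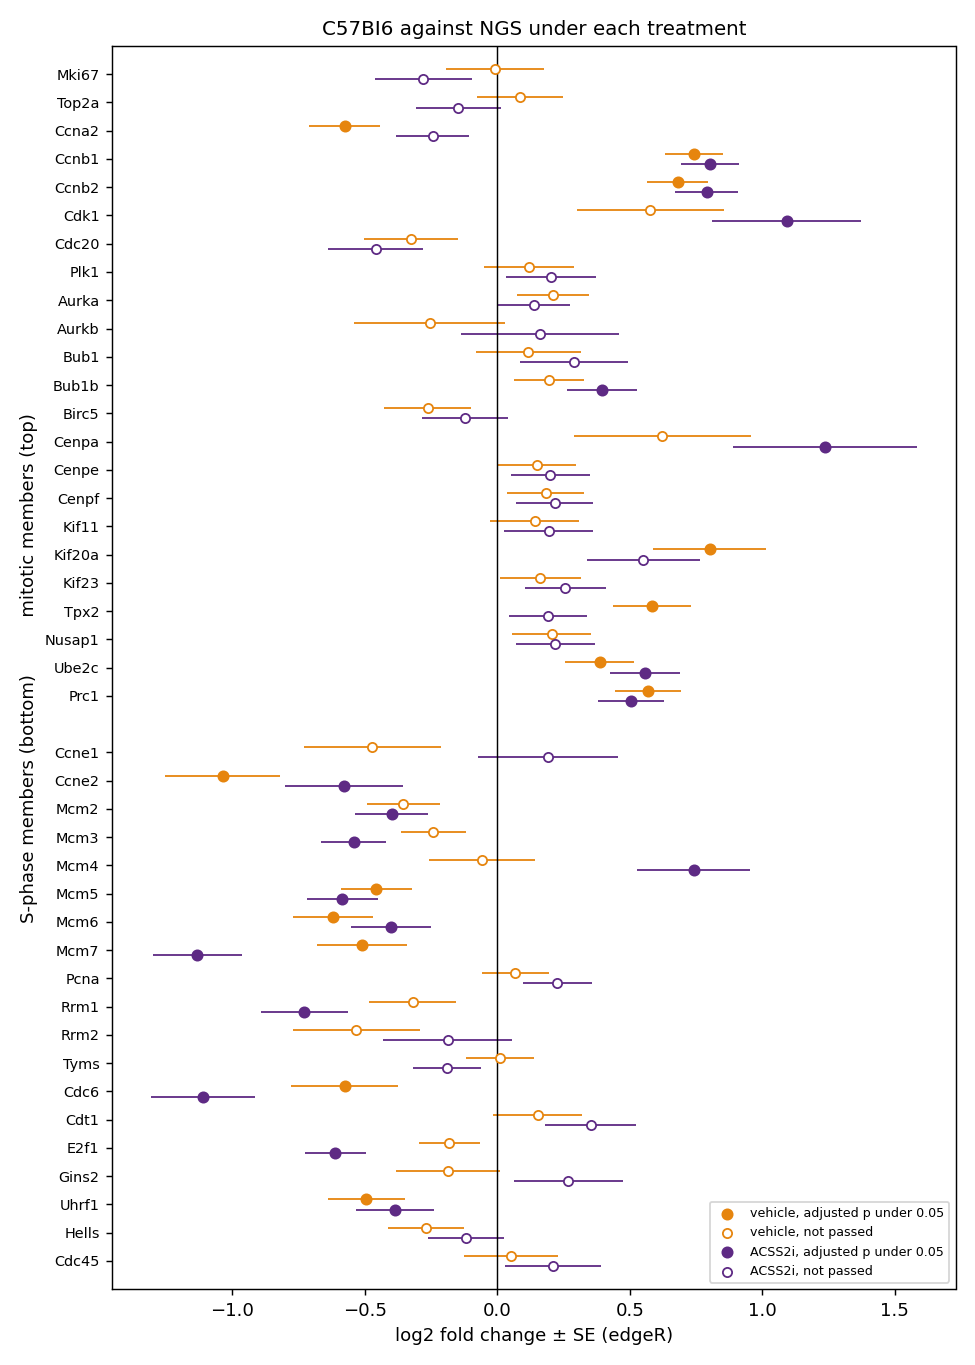
Log2 fold change of C57BI6 against NGS for each member (mitotic above, S-phase below), in vehicle (orange) and under ACSS2i (purple); bars are the SE of the edgeR fit, and filled points have an adjusted p under 0.05. Filled points among the S-phase members lie left of 0 except Mcm4 under ACSS2i, and those among the mitotic members lie right of 0 except Ccna2 in vehicle.

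The S-phase members include the MCM helicase, whose 6 subunits, Mcm2 to Mcm7, form 1 ring around DNA. Of the 6, 3 were lower in C57BI6 in vehicle, where 14% of all genes were lower. Under ACSS2i 5 were lower and 1 was higher, against 17.2% and 23.1% of all genes, and several of these calls were lost without 1 library, as given below for each. Mcm7 was at 116, 127 and 132 CPM in NGS vehicle, 143, 276 and 209 CPM in NGS ACSS2i, 88.8, 100.4, 87.7 and 74.8 CPM in C57BI6 vehicle, and 91.5, 102, 104 and 84.6 CPM in C57BI6 ACSS2i. Every NGS library lay above every C57BI6 library, and the log2 fold change was -0.51 ± 0.17 in vehicle (edgeR adjusted p = 0.032) and -1.13 ± 0.17 under ACSS2i (adjusted p = 0.000116). Only the vehicle call was lost in alternatives, without any 1 of NGS vehicle 2 and 3 and C57BI6 vehicle 1, 3 and 4.

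Mcm5 was at 42.1, 37.9 and 39.4 CPM in NGS vehicle, 44.7, 63.3 and 46.0 CPM in NGS ACSS2i, 31.1, 28.0, 32.5 and 24.6 CPM in C57BI6 vehicle, and 31.6, 34.7, 36.7 and 33.5 CPM in C57BI6 ACSS2i. Mcm6 was at 67.6, 71.8 and 76.4 CPM in NGS vehicle, 74.1, 53.7 and 79.9 CPM in NGS ACSS2i, 45.2, 53.9, 51.7 and 36.2 CPM in C57BI6 vehicle, and 49.7, 58.5, 54.4 and 48.0 CPM in C57BI6 ACSS2i. The strains did not overlap for Mcm5, and they overlapped for Mcm6 only through NGS ACSS2i 2. In vehicle Mcm5 differed by -0.46 ± 0.13 (edgeR adjusted p = 0.017) and Mcm6 by -0.62 ± 0.15 (adjusted p = 0.0054). The Mcm5 call was lost without NGS vehicle 1 and with the replicate number as a block. Under ACSS2i Mcm5 differed by -0.58 ± 0.13 (edgeR adjusted p = 0.0031) and Mcm6 by -0.40 ± 0.15 (adjusted p = 0.047), the latter lost in 10 of the 14 fits without 1 library. That Mcm6 call was also lost with no filter on low counts, with the groups compared alone and with the replicate block.

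Mcm3 was at 68.6, 75.8 and 78.6 CPM in NGS vehicle, 78.9, 100.2 and 97.1 CPM in NGS ACSS2i, 62.7, 64.2, 69.5 and 55.3 CPM in C57BI6 vehicle, and 60.4, 72.6, 66.3 and 53.8 CPM in C57BI6 ACSS2i. Under ACSS2i it was lower without overlap (-0.54 ± 0.12, edgeR adjusted p = 0.0031), and in vehicle 1 C57BI6 library reached into the NGS range (-0.24 ± 0.12, adjusted p = 0.15). Mcm2 was at 50.4, 50.7 and 46.0 CPM in NGS vehicle, 56.7, 39.9 and 61.5 CPM in NGS ACSS2i, 35.7, 42.5, 41.8 and 33.4 CPM in C57BI6 vehicle, and 40.7, 43.4, 39.9 and 36.5 CPM in C57BI6 ACSS2i. It differed by -0.35 ± 0.14 in vehicle (edgeR adjusted p = 0.061) and -0.40 ± 0.14 under ACSS2i (adjusted p = 0.032), a call lost without any 1 of NGS ACSS2i 1 and 3 and C57BI6 ACSS2i 1, 3 and 4. That call was also lost with no filter on low counts, with the groups compared alone and with the replicate block. Mcm4 was the exception: it was at 43.3, 37.5 and 47.4 CPM in NGS vehicle, 32.1, 17.5 and 23 CPM in NGS ACSS2i, 39.6, 47.9, 49.4 and 27.3 CPM in C57BI6 vehicle, and 39.5, 38.9, 45.6 and 38.5 CPM in C57BI6 ACSS2i. The strains overlapped in vehicle (-0.06 ± 0.20, edgeR adjusted p = 0.86) and not under ACSS2i, where C57BI6 was higher (0.74 ± 0.21, adjusted p = 0.013; lost without NGS ACSS2i 2, at adjusted p = 0.059).

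Of the factors that license and start replication, Cdc6, a loader of the MCM ring, was at 8.30, 13.9 and 13.7 CPM in NGS vehicle, 16.6, 20.4 and 20.5 CPM in NGS ACSS2i, 6.76, 10.01, 8.29 and 6.94 CPM in C57BI6 vehicle, and 7.57, 9.68, 8.80 and 9.41 CPM in C57BI6 ACSS2i. Under ACSS2i it was lower in C57BI6 by -1.11 ± 0.20 (edgeR adjusted p = 0.00049) with a wide gap between the strains, and in vehicle by -0.57 ± 0.20 (adjusted p = 0.04), a call lost in 7 of the 14 fits without 1 library. The vehicle call of Cdc6 was also lost with limma voom, with no filter on low counts, with the groups compared alone and at equal depth. Leaving out NGS ACSS2i 2 and C57BI6 vehicle 4 together lost it too. Cdt1, the partner of Cdc6, was not lower in C57BI6 (0.15 ± 0.17 and 0.35 ± 0.17, edgeR adjusted p = 0.52 and 0.11). Cdt1 overlaps Gm20388 on the same strand by 5540 bases, and how reads were shared between them is not given in the sources used here. E2f1, a transcription factor of S-phase genes, was at 42.3, 39.0 and 44.7 CPM in NGS vehicle, 51.6, 67.9 and 67.2 CPM in NGS ACSS2i, 32.3, 37.0, 40.1 and 38.9 CPM in C57BI6 vehicle, and 38.9, 41.6, 43.3 and 39.1 CPM in C57BI6 ACSS2i. The strains overlapped in vehicle (-0.18 ± 0.12, adjusted p = 0.25) and separated under ACSS2i (-0.61 ± 0.11, edgeR adjusted p = 0.00076), where E2f1 of the NGS tumours was at its highest.

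Ccne2, a cyclin E, was at 26.3, 29.6 and 39.7 CPM in NGS vehicle, 17.9, 40.5 and 24.2 CPM in NGS ACSS2i, 17.4, 16.4, 15.1 and 13.1 CPM in C57BI6 vehicle, and 16.6, 18.9, 20.6 and 17.1 CPM in C57BI6 ACSS2i. It was lower in C57BI6 in vehicle by -1.04 ± 0.22 (edgeR adjusted p = 0.0021) without overlap. Under ACSS2i the groups overlapped and the call was lost in 12 of the 14 fits without 1 library (-0.58 ± 0.22, edgeR adjusted p = 0.0497). That call was also lost with limma voom, with no filter on low counts, with the groups compared alone and with the replicate block. Leaving out NGS ACSS2i 2 and C57BI6 vehicle 4 together lost it too. The other cyclin E, Ccne1, did not pass in either comparison (-0.47 ± 0.26 and 0.19 ± 0.26, edgeR adjusted p = 0.18 and 0.59).

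Rrm1, the large subunit of ribonucleotide reductase, was at 65.2, 61.9 and 64.0 CPM in NGS vehicle, 62.0, 115 and 82.2 CPM in NGS ACSS2i, 55.9, 52.5, 53.4 and 42.6 CPM in C57BI6 vehicle, and 47.3, 58.0, 55.2 and 47.4 CPM in C57BI6 ACSS2i. No C57BI6 library reached the NGS range, and the difference passed under ACSS2i (-0.73 ± 0.16, edgeR adjusted p = 0.0028) and not in vehicle (-0.32 ± 0.16, adjusted p = 0.15). Uhrf1, which carries DNA methylation through replication, was at 43.5, 37.7 and 48.1 CPM in NGS vehicle, 43.9, 36.6 and 45.8 CPM in NGS ACSS2i, 32.7, 29.9, 34.9 and 25.0 CPM in C57BI6 vehicle, and 28.1, 32, 39.0 and 30.1 CPM in C57BI6 ACSS2i. It was lower by -0.49 ± 0.15 in vehicle (edgeR adjusted p = 0.018; lost without NGS vehicle 1 or 3 and at equal depth) and by -0.39 ± 0.15 under ACSS2i (adjusted p = 0.0497; lost in 11 of the 14 fits without 1 library). The Uhrf1 call under ACSS2i was also lost with no filter on low counts, with the replicate block, with the groups compared alone and at equal depth. The sliding clamp gene Pcna, the reductase subunit Rrm2, the thymidylate synthase Tyms, the helicase partners Gins2 and Cdc45 and the chromatin remodeller Hells passed in neither comparison. Leaving out the 3 libraries richest in skeletal muscle reduced NGS vehicle to 1 library, assumed to vary like the others. The vehicle comparison then called 4 mitotic and 0 S-phase members, with medians of 0.43 and -0.16, and its calls over all genes fell to 10.2% higher and 6.24% lower.

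**Figure D3:**
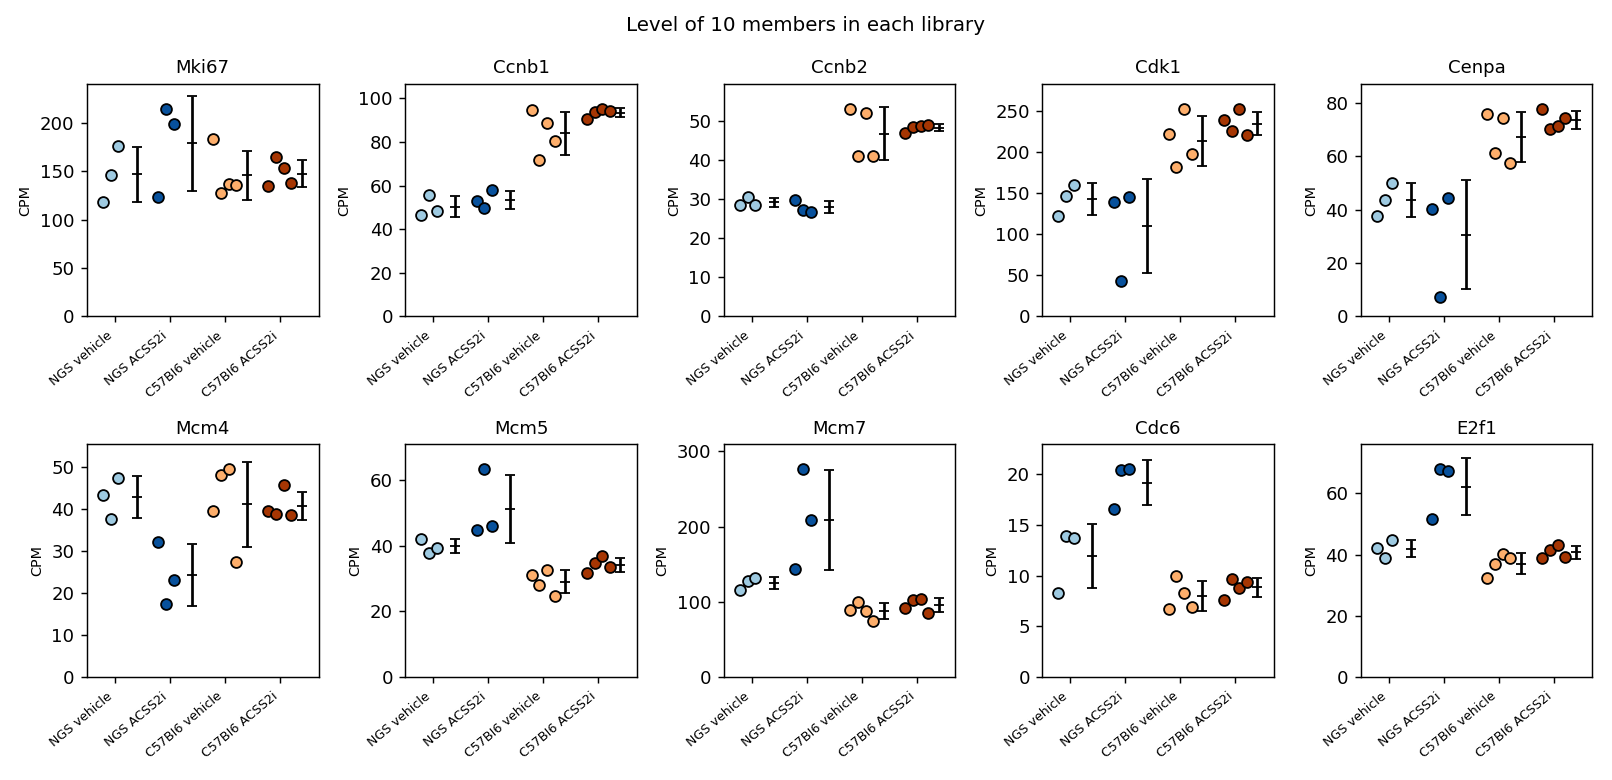
Level of 10 members in CPM by group; each point is a library in order of replicate number, and the bar is the mean ± SD. Ccnb1, Ccnb2, Cdk1 and Cenpa lie higher in the C57BI6 groups, Mcm5, Mcm7 and Cdc6 lie lower, and NGS ACSS2i 2 is the low point of Cdk1, Cenpa and Mcm4 and the high point of Mcm7.

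The 2 lists differ in the letters of their promoters, shown here for members that set the strains apart in opposite directions. Promoters of 250 bases before to 50 after the start came from RefSeq (GRCm38.p6) and matched 35 of the 42 members. Both strands were searched for the cell cycle homology element (CHR), whose letters are TTTGAA, for CCAAT, and for E2F by 2 spellings of its motif. The first spelling was TTCCCGC. The second spelling was TTGGCGC, which can overlap the reverse complement of CCAAT. Matches are in capitals, written in the direction of the gene. The first pair, mitotic, lies at chr9:70421505-70421804 (minus strand) and chr10:69352863-69353162 (minus strand), and the second pair, of S phase, at chr1:128359656-128359955 (minus strand) and chr11:98907901-98908200 (plus strand).
Ccnb2: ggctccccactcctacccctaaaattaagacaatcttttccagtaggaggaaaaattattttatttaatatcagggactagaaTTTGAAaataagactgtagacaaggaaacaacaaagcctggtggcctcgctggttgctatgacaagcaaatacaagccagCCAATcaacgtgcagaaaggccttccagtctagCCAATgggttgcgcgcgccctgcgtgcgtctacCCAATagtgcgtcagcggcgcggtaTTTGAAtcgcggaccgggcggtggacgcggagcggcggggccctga
Cdk1: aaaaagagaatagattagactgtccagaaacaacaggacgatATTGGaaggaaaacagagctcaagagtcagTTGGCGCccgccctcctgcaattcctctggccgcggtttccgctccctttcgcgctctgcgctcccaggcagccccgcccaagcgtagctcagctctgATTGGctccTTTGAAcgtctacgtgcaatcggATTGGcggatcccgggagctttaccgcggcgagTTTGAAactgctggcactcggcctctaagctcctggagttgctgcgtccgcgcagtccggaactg
Mcm6: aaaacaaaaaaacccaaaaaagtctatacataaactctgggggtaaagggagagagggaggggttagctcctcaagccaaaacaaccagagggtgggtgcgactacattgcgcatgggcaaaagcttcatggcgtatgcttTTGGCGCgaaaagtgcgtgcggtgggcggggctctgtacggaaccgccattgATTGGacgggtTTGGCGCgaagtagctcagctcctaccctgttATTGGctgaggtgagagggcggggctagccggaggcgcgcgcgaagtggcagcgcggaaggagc
Cdc6: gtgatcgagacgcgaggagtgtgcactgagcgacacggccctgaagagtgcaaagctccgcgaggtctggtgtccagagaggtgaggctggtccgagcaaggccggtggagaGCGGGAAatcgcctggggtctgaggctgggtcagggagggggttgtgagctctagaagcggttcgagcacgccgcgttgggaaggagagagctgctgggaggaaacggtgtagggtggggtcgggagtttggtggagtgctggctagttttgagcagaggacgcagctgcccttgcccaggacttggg

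Ccnb2 held 2 CHR and 3 CCAAT matches and 0 E2F matches, and Cdk1 held 2, 3 and 1. Mcm6 held 0 CHR, 2 CCAAT and 2 E2F matches, and Cdc6 held 1 E2F match alone. By GENCODE, however, Cdc6 begins at chr11:98907801, so its RefSeq window lies inside the gene. The matches of Cdc6 therefore leave out all sequence before that GENCODE start. CHR was found in 14 of 19 mitotic members (73.7%) and 2 of 16 S-phase members (12.5%), against 20.2% of 27025 genes with a promoter in the table. CCAAT was found in 17 of 19 mitotic (89.5%) and 10 of 16 S-phase members (62.5%), against 41.1% of genes, and E2F motifs in 3 of 19 (15.8%) and 9 of 16 (56.3%), against 7.79%. A match describes the letters of the window and does not show that a factor binds there.

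Whether the inhibitor moved these genes was asked within each strain. In C57BI6 tumours, 0 of the 42 members passed by the edgeR quasi-likelihood test, 2 (4.76%) had an unadjusted p under 0.05, and DESeq2 and limma voom called 0 each. Of all genes tested, edgeR called 0.260% higher and 0.0520% lower, 7.96% had an unadjusted p under 0.05, DESeq2 called 1.91% and limma voom 2.48%. All 23 mitotic members and 16 of the 19 S-phase members had a positive log2 fold change, with medians of 0.15 and 0.06, against 47.3% positive and a median of -0.01 over all genes. The members were read in the same libraries, so the signs do not count as separate observations. The libraries of the 2 groups separated for 0 mitotic members and for 1 S-phase member, Ccne1, while 5.05% of all genes separated upward and 4.28% downward.

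Mki67, the usual marker of proliferation, was at 118, 146 and 176 CPM in NGS vehicle, 123, 214 and 199 CPM in NGS ACSS2i, 183, 128, 137 and 136 CPM in C57BI6 vehicle, and 134, 164, 153 and 138 CPM in C57BI6 ACSS2i. Top2a, which untangles replicated DNA, was at 369, 435 and 530.2 CPM in NGS vehicle, 439, 718 and 662 CPM in NGS ACSS2i, 550.4, 397, 479 and 464 CPM in C57BI6 vehicle, and 514, 577, 578 and 520.5 CPM in C57BI6 ACSS2i. The groups overlapped for both genes, and C57BI6 vehicle 1 was the highest vehicle library of that strain. The effect of the inhibitor on Mki67 was 0.02 ± 0.17 in C57BI6 and 0.29 ± 0.20 in NGS on the log2 scale (edgeR adjusted p = 1 and 0.42), and on Top2a 0.21 ± 0.15 and 0.45 ± 0.17 (adjusted p = 0.85 and 0.15).

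Of the mitotic members, Bub1b and Plk1, a kinase of mitotic entry and exit, had the largest changes in C57BI6. Plk1 was at 70.4, 70.9 and 75.4 CPM in NGS vehicle, 62.3, 81.7 and 103 CPM in NGS ACSS2i, 99.98, 65.5, 83.0 and 65.5 CPM in C57BI6 vehicle, and 87.2, 91.4, 107 and 93.9 CPM in C57BI6 ACSS2i. The inhibited libraries of C57BI6 fell inside or just above the vehicle range, with effects of 0.27 ± 0.15 for Plk1 (edgeR adjusted p = 0.76) and 0.29 ± 0.11 for Bub1b (adjusted p = 0.47). The effect on Ccnb1 was 0.15 ± 0.10 (edgeR adjusted p = 0.81) and that on Cdk1 0.14 ± 0.25 (adjusted p = 0.98).

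Of the S-phase members, Ccne1 was at 8.70, 16.8 and 15.7 CPM in NGS vehicle, 15.5, 8.57 and 12.7 CPM in NGS ACSS2i, 11.3, 12.2, 9.77 and 6.22 CPM in C57BI6 vehicle, and 14.7, 12.8, 15.6 and 13.4 CPM in C57BI6 ACSS2i. The C57BI6 groups separated by a narrow gap and the NGS groups did not (0.51 ± 0.23, edgeR adjusted p = 0.56, and -0.15 ± 0.29, adjusted p = 0.82). Pcna was at 76.9, 72.5 and 68.6 CPM in NGS vehicle, 63.4, 60.6 and 72.7 CPM in NGS ACSS2i, 81.0, 86.8, 79.9 and 57 CPM in C57BI6 vehicle, and 77.5, 74.7, 80.4 and 75.0 CPM in C57BI6 ACSS2i. The groups overlapped, with effects of 0.01 ± 0.12 in C57BI6 and -0.15 ± 0.14 in NGS (edgeR adjusted p = 1 and 0.57). Ccne2, Mcm2 and E2f1 differed in C57BI6 by 0.24 ± 0.20, 0.06 ± 0.12 and 0.14 ± 0.10 (edgeR adjusted p = 0.89, 0.98 and 0.88). In simulated counts of all 17294 genes with these group sizes, 68 of 100 genes changed 2-fold were found in the C57BI6 comparison. Of those changed 1.5-fold, 16 of 100 were found, so smaller changes would mostly be missed among such genes. The simulation covered all genes tested and not the members alone, so its shares need not hold for the members.

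**Figure D4:**
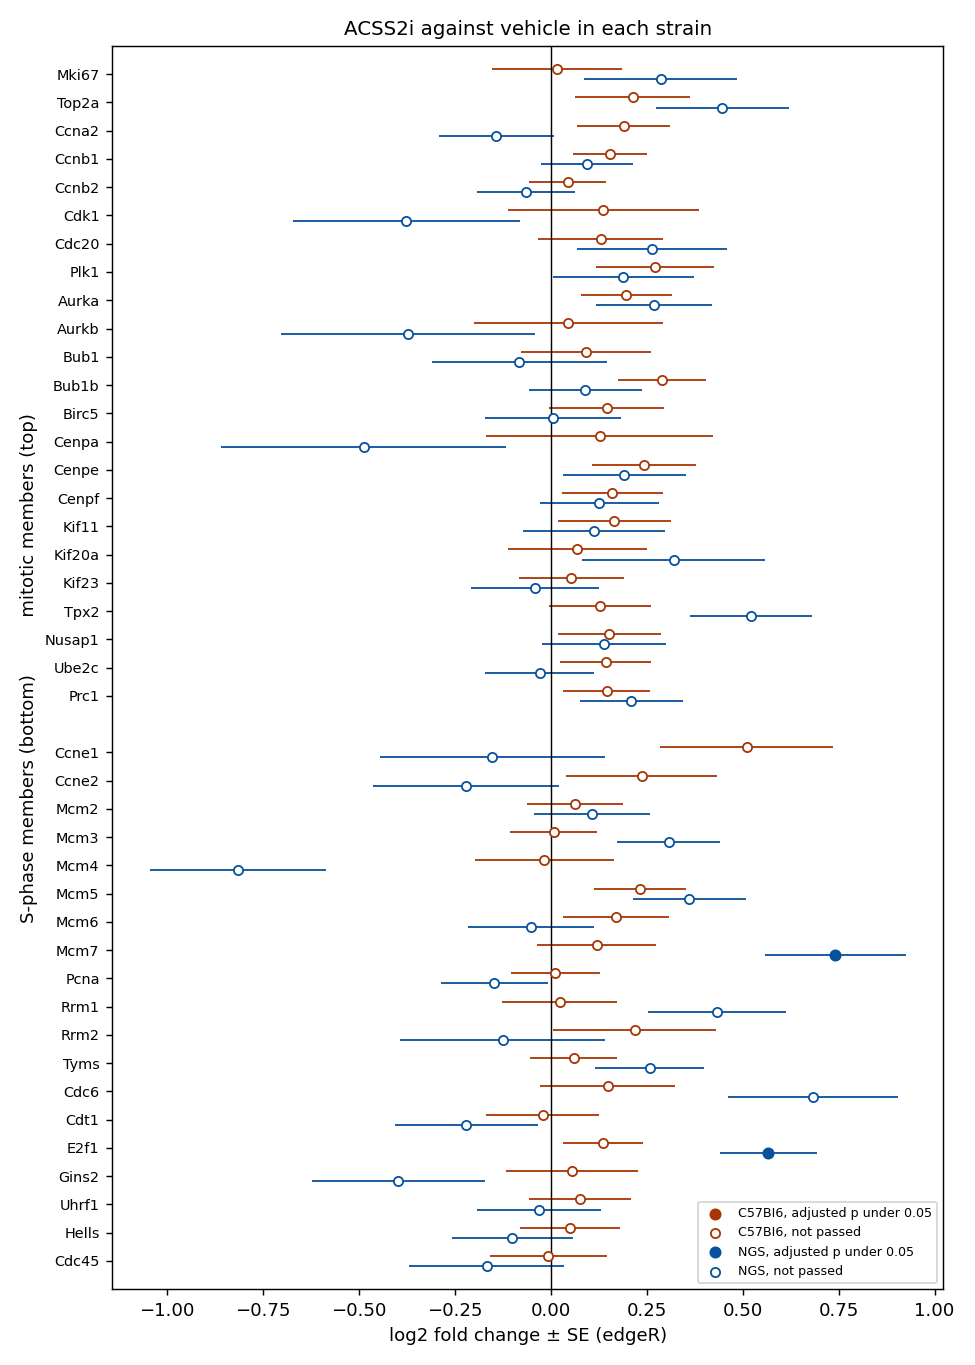
Log2 fold change of ACSS2i against vehicle for each member, in C57BI6 (brown) and NGS (blue); bars are the SE of the edgeR fit, and filled points have an adjusted p under 0.05. The 2 filled points are Mcm7 and E2f1 in NGS, and the C57BI6 points lie between -0.02 and 0.51.

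In NGS tumours, 2 S-phase members rose with the inhibitor, E2f1 and Mcm7, and 0 members fell. Of all genes tested, 1.32% were higher and 1.38% lower. E2f1 rose by 0.57 ± 0.13 on the log2 scale (edgeR adjusted p = 0.031) and Mcm7 by 0.74 ± 0.18 (adjusted p = 0.046), and for both genes all 3 inhibited libraries lay above all 3 vehicle libraries. Neither call held in every fit without 1 library. That of E2f1 was lost without any 1 of NGS vehicle 1 and 2 and NGS ACSS2i 2 and 3. That of Mcm7, which lay near the threshold, was lost in 12 of the 14 fits, among them fits without a C57BI6 library. limma voom called 0 of the 42 members, against 0.156% of all genes, and DESeq2 called 5 (11.9%, against 8.90%). An unadjusted p under 0.05 in the edgeR test was found for 9 members (21.4%), which is at the 22.1% of all genes. By list these were 7 of 19 S-phase members (36.8%) and 2 of 23 mitotic members (8.70%). The DESeq2 calls were 4 S-phase members (21.1%) and 1 mitotic member (4.35%). No test compared the lists. With the replicate number as a block, 0 passed (adjusted p = 0.063 for E2f1 and 0.051 for Mcm7). Mcm7 overlaps Cops6 and Ap4m1 on the opposite strand.

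The S-phase members did not move as a group in NGS, where 8 of 19 were positive and the median was -0.05; the mitotic median was 0.11, with 15 of 23 positive. The libraries separated upward for 6 S-phase members (Mcm3, Mcm5, Mcm7, Tyms, Cdc6 and E2f1) and downward for 1, Mcm4, and for the mitotic members upward for Tpx2 alone, while 8.48% of all genes separated upward and 10.3% downward. Within the MCM ring the log2 fold changes ran from -0.81 ± 0.23 for Mcm4 (edgeR adjusted p = 0.066) to the 0.74 of Mcm7. Tpx2 differed by 0.52 ± 0.16 (edgeR adjusted p = 0.082), Cdc6 by 0.68 ± 0.22 (adjusted p = 0.095) and Cenpa by -0.49 ± 0.37 (adjusted p = 0.47). The values of Ccnb1, Cdk1 and Mcm2 were 0.09 ± 0.12, -0.38 ± 0.30 and 0.11 ± 0.15 (edgeR adjusted p = 0.69, 0.48 and 0.72). The library NGS ACSS2i 2 was the lowest of its group for Cdk1, Cenpa and Mcm4 and the highest for Mcm7, Mcm5 and Rrm1; without it Cdk1 stood at 0.02.

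The difference between the effects in the 2 strains was tested as an interaction, and 0 of the 42 members passed by edgeR, against 0.0173% of all genes. An unadjusted p under 0.05 was found for 3 members (7.14%), all of S phase, which is under the 13.8% of all genes. They made up 15.8% of the S-phase list. DESeq2 and limma voom called 0 members, against 1.57% and 0% of all genes. The 3 members were Mcm4 (0.80 ± 0.29, C57BI6 minus NGS, edgeR adjusted p = 0.27), Mcm7 (-0.62 ± 0.24, adjusted p = 0.29) and E2f1 (-0.43 ± 0.16, adjusted p = 0.29). The passing of E2f1 and Mcm7 in NGS alone is therefore not shown to be a difference between the strains' responses. In simulated counts of all genes tested, this test found 0 of 100 genes whose effects differed 1.5-fold and 13 of 100 that differed 2-fold.

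Members varied more among the NGS libraries under ACSS2i than among those of C57BI6, and so did other genes. Of the 9913 genes at a like level, 10.3 to 27.3% lay outside 1.5-fold of their group's other libraries in NGS ACSS2i. In C57BI6 ACSS2i the share was 2.12 to 3.35%. The coefficient of variation across a group's libraries had a median over the mitotic members of 14.1% with vehicle and 20.0% with ACSS2i in NGS, and of 15% with vehicle and 6.16% with ACSS2i in C57BI6. For the S-phase members it was, in the same order, 9.55%, 19.9%, 14% and 9.41%. Within C57BI6 vehicle, replicate 1 was the highest for 20 of the 23 mitotic members, and replicate 4 was the lowest for 17 of the 19 S-phase members. These medians describe the spread with no test, and depth differed between the strains.

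**Figure D5:**
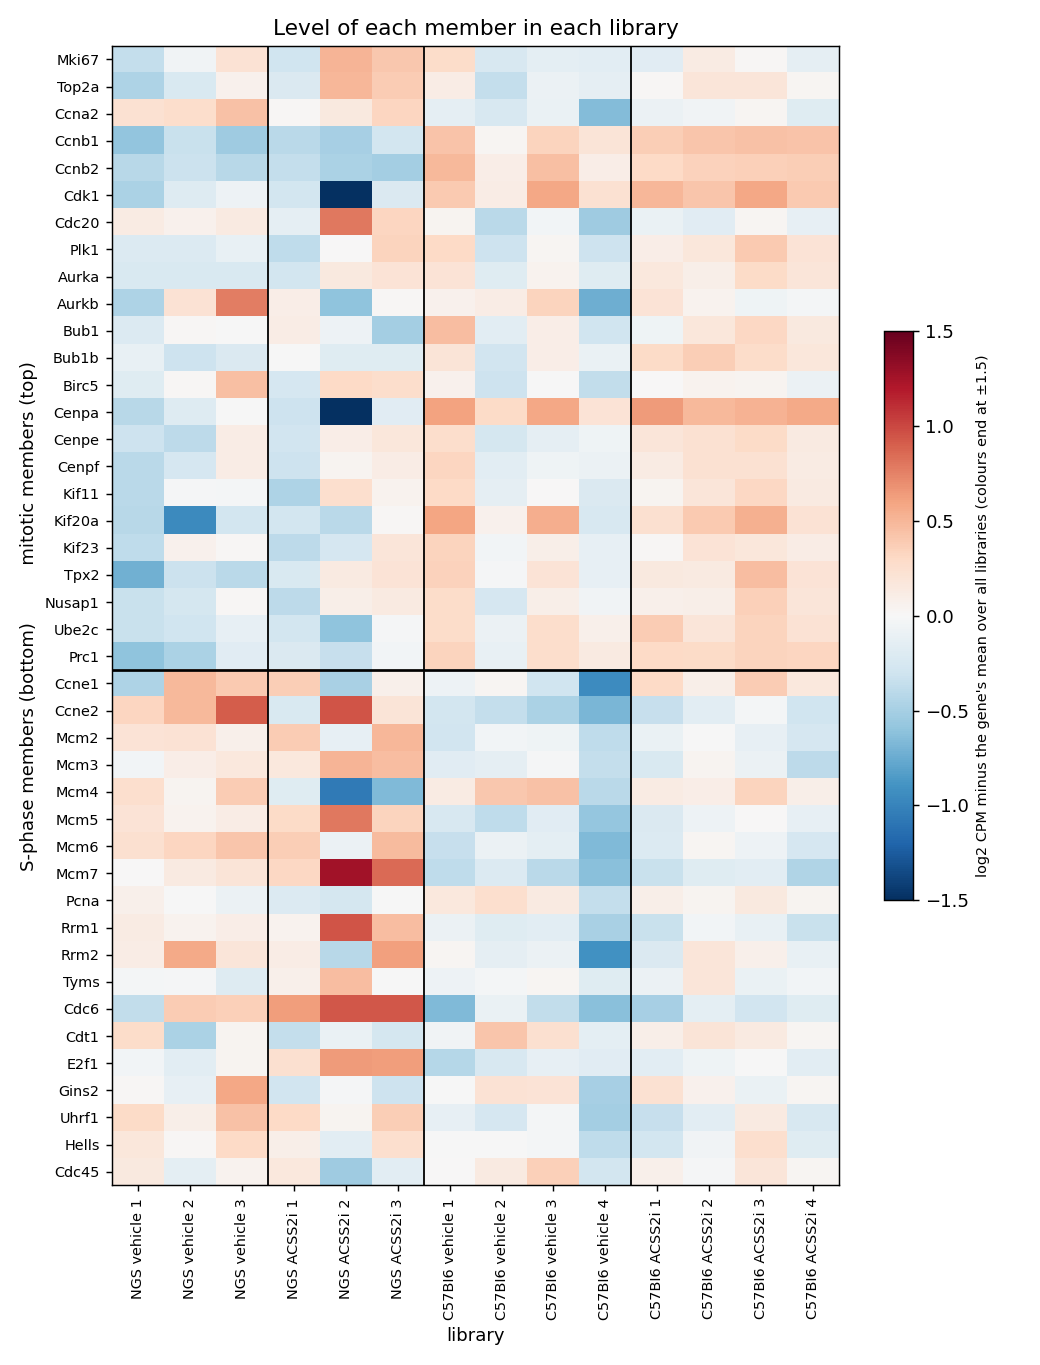
Level of each of the 42 members (rows) in each of the 14 libraries (columns), as log2 CPM minus the gene's mean over the libraries, with colours ending at 1.5 either way. Ccnb1, Ccnb2 and Prc1 are blue across the NGS libraries and red across those of C57BI6 save for Prc1 in C57BI6 vehicle 2, and C57BI6 vehicle 4 has the lowest S-phase value of its group in 17 of 19 rows.

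Other cell cycle genes, in 4 lists that hold no member, gave the setting. With the inhibitor in C57BI6, 0 of 54 further mitotic genes, 0 of 64 further replication genes, 0 of 13 entry genes and 0 of 24 inhibitors of the cycle passed by edgeR. An unadjusted p under 0.05 was found for 1, 2, 2 and 4 of them in that order (1.85, 3.1, 15.4 and 16.7%, against 7.96% of all genes). DESeq2 called 0, against 1.91% of all genes, and limma voom called 1 inhibitor (4.17%, against 2.48%). In NGS, edgeR called 0 of the further mitotic genes, 1 replication gene, 3 entry genes and 2 inhibitors, where 1.32% of all genes were higher and 1.38% lower. DESeq2 called 4, 5, 3 and 6 of them (7.41, 7.81, 23.1 and 25%, against 8.90% of all genes). In each list limma voom called 0, against 0.156% of all genes. An unadjusted p under 0.05 was found for 9, 12, 4 and 8 (16.7, 18.8, 30.8 and 33.3%, against 22.1% of all genes). The replication gene that fell was Orc6 of the origin recognition complex (-0.82 ± 0.17, edgeR adjusted p = 0.024). Of the entry genes the cyclin D gene Ccnd2 rose, from 852 ± 137 to 1279 ± 175 CPM (SD, n = 3 each), while Cdk2 and the E2F partner Tfdp1 fell (-0.68 and -0.71). Of the inhibitors, Cdkn1b, which encodes p27, and the retinoblastoma gene Rb1 fell (-0.84 ± 0.19 and -0.63 ± 0.15, edgeR adjusted p = 0.030 and 0.037).

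Between strains in vehicle, 9 further mitotic genes were higher and 0 lower, and among the replication genes 7 were higher and 6 lower, so these lists stood at or under the background given above. Some single genes differed by more than any member, and others by less. Spc24, a kinetochore subunit, was at 179 ± 14.6 CPM in C57BI6 (n = 4) and 20.9 ± 2.67 CPM in NGS (n = 3) in vehicle, a log2 fold change of 3.10 ± 0.13 (edgeR adjusted p = 2.49e-10). Ticrr, which helps to fire origins, was at 82.8 ± 7.61 and 4.11 ± 1.76 CPM (4.34 ± 0.19, edgeR adjusted p = 4.14e-10), and Dbf4, the activator of the origin kinase Cdc7, at 142 ± 8.72 and 59.1 ± 6.94 CPM. Spc24 and Ticrr kept gaps of 2.92 ± 0.13 and 4.29 ± 0.19 under ACSS2i. There, with 23.1% of all genes higher and 17.2% lower, 15 of the 54 further mitotic genes were higher (27.8%) and 1 lower, and 8 of the 64 replication genes were higher (12.5%) and 9 lower (14.1%). Of the 13 entry genes 3 were higher (23.1%) and 2 lower (15.4%), and of the 24 inhibitors 9 were higher (37.5%) and 3 lower (12.5%). In vehicle 3 entry genes were higher (23.1%, against 18.8% of all genes) and 0 lower, and 6 inhibitors were higher (25%) and 1 lower. Cdkn1b was higher in C57BI6 by 0.83 ± 0.17 in vehicle and 1.57 ± 0.18 under ACSS2i (edgeR adjusted p = 0.0017 and 8.05e-06).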

How the data were processed

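The values used are whole-number counts per gene, as deposited, in 1 table of 14 libraries; the submitters' processing notes, which state no roles, name mm10, RSEM 1.2.3 and DESeq2, so the counts may be rounded RSEM estimates. Aligner, annotation and strand setting are not given in the sources used here. Symbols came from GENCODE M21 (51596 of 51789 genes). Libraries were grouped as labelled; no label says that replicates are separate animals, so p-values measure the spread between these samples, which may be technical.

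Genes were filtered with filterByExpr (minimum count 10, minimum total 15), scaled by TMM and tested two-sided in edgeR 4.0.16 (R 4.3.3) by the quasi-likelihood test, in 1 model of the 4 groups (common biological coefficient of variation 0.236). Benjamini-Hochberg adjustment ran over all genes, with a threshold of 0.05. Library totals were 2.85 to 20.3 M counts. Between any pair of libraries of 1 group the chi-square was 6.62 to 25.4 per degree of freedom, where counting noise gives 1, so none was counted as a duplicate. The fit was tested on simulated data with 100 genes changed 1.5-fold and 100 changed 2-fold. Alternatives were DESeq2's size factors and test (1.42.0), limma voom with quality weights (3.58.1), no filter, fits to the groups compared, a replicate block, counts thinned to 2.85 M counts, and libraries left out. Leaving out NGS ACSS2i 2 and C57BI6 vehicle 4 together was chosen after seeing the data.

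Members and lists were chosen with earlier results of these data known. Members given in full were 8 fixed ones, those past the threshold (the 5 with the smallest p in each direction where over 10 passed) and, per strain, the 2 of each list with the largest inhibitor change. Other members' values were added after they were seen. Promoter motifs were counted in Python 3.11.15.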

Additional observations from a re-analysis of the deposited data

Results flagged for a closer look

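In 4 of 84 groups of 4 libraries (42 members in each C57BI6 group), 1 library stood far from the other 3 by Dixon's criterion; chance alone gives about 1 in 20. Mki67 was 183 CPM in C57BI6 vehicle 1 and 128 to 137 CPM in the others. Cenpf, a kinetochore protein of mitosis, was 195 CPM in the same library and 139 to 148 CPM in the others. Hells, a chromatin remodeller, was 54.8 CPM in C57BI6 vehicle 4 and 69.6 to 70.8 CPM in the others. Mcm4 was 45.6 CPM in C57BI6 ACSS2i 3 and 38.5 to 39.5 CPM in the others.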

How the results depend on the processing

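Of the 33 member calls, 19 passed in every fit without 1 library, 16 in each of the other settings and 15 in all of these, and 0 changed direction. For the inhibitor in NGS, the S-phase count of 2 became 4 with DESeq2, 1 at equal depth, and 0 with voom, with the groups compared alone, with the replicate block, without the 3 muscle-rich libraries and without NGS ACSS2i 2 and C57BI6 vehicle 4; without 1 library it was 0 to 4. The share of all genes called moved too: it was 2.69% in the reported fit, 8.90% with DESeq2, 3.21% at equal depth, 0.156% with voom, 0.0717% with the groups compared alone, 1.47% with the block, 0.140% without the muscle-rich libraries and 0.610% without the other 2. Without 1 library that share ran from 0.658% (NGS ACSS2i 2 left out) to 9.78% (NGS ACSS2i 1 left out). The mitotic count of 0 became 1 with DESeq2 and 0 to 2 without 1 library. The S-phase median of -0.05 became 0.064 with voom, 0.088 without the muscle-rich libraries, 0.11 without the other 2 libraries, and -0.14 to 0.11 without 1. For the difference of the effects, the mitotic median of 0.06 became -0.18 without the muscle-rich libraries, and the S-phase median of 0.15 became -0.038 with voom, 0.00192 without the muscle-rich libraries and -0.031 without the other 2. The fit to the groups compared alone has no version for this difference.

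Between strains in vehicle, leaving out the muscle-rich libraries gave a mitotic median of 0.43 (4 called) and an S-phase median of -0.16 (0 called), with 16.4% of all genes called in place of 32.8%; 3 to 7 S-phase members were called without 1 library. Under ACSS2i, the 11 S-phase calls became 7 with no filter, 7 with the groups compared alone, 7 with the replicate block and 7 to 10 without 1 library, where the S-phase median was -0.39 to -0.27; of all genes 40.3% were called in the reported fit and 23.3%, 37.3% and 35.6% in the first 3 of these. In the fits without 1 library, 25.7 to 37.4% of all genes were called in vehicle and 33.3 to 40.3% under ACSS2i. The causes were not tested, beyond the smaller number of samples in some fits.

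Inhibitor effects near 0 changed sign. In C57BI6, Mki67 was -0.024 with voom and -0.032 to 0.17 without 1 library. Pcna was -0.014 with voom, -0.00276 without the muscle-rich libraries, -0.079 without the other 2 and -0.10 to 0.093 without 1 library, and Mcm2 was -0.084 at equal depth. In NGS, Cdk1 was 0.0163 without the other 2 libraries and -0.64 to 0.0159 without 1, Mcm2 was -0.021 to 0.29 without 1, and Ccne1 was 0.53 without the muscle-rich libraries, 0.0538 without the other 2 and -0.40 to 0.0541 without 1.

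Whether the replicate numbers pair the samples cannot be decided from so few libraries. Over 5152 genes, deviations of equally numbered libraries correlated at 0.0099 to 0.19 in NGS (others -0.19 to 0.11). In C57BI6 they correlated at -0.23 to 0.23 (others -0.38 to 0.26). The NGS groups were shallower and had 3 libraries each, and how much of their lower precision came from either was not tested.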
